A study of Homo sapiens with 8 samples.

Results

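The BCL2 family decides at the outer mitochondrial membrane whether a cell undergoes apoptosis, and 10 of its genes were described here in NKM-1 cells, a human line grown from myeloid leukemia. The 10 genes were chosen by name among the 17912 genes measured: BCL2, BCL2L1, MCL1 and BCL2A1 encode survival proteins, BAD, BID, BCL2L11, PMAIP1 and BBC3 encode proteins that share only the BH3 domain with the rest of the family, and BAK1 encodes a pore-forming effector. All 10 were listed and passed the filter on low values. Cells had been exposed for 48 h to SF153 at 30 uM, an inhibitor, per the series title, of splicing factors that carry a U2AF homology motif (UHM), or to DMSO, the solvent. Each treatment had 4 total RNA libraries depleted of ribosomal RNA, 2 in each of 2 labelled batches, from cells of the same wild-type line in the same medium. Libraries are named by batch and number, so that SF153 2.1 belongs to batch 2. Nothing in the labels says that the libraries of a batch are separate cultures, so p-values measure only the spread between libraries, which may be technical.

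Survival proteins hold the effectors BAX and BAK1 in check and bind the BH3 domains of the BH3-only proteins. When BH3-only proteins are made or activated in excess, the effectors assemble into pores, cytochrome c leaves the mitochondria and caspases are activated. Myeloid leukemia cells often rely on MCL1 or BCL2 protein, and BCL2 inhibitors are used as drugs in this disease.

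The values are recorded as a signal, since the file labels name both CPM and TPM and do not settle whether transcript length is corrected for. Levels of different genes are set side by side here on the assumption that it is. The read depth is unknown. Column sums were 828381 and 835840 in the batch 2 SF153 libraries and between 990815 and 1027119 in the other 6, and no rescaling to a common sum was applied to the tested values. Both SF153 batches stood apart in composition: the mitochondrial genome gave 16.8% of all signal in batch 2 SF153 libraries, compared with 9.17% to 9.92% elsewhere, and small RNA genes gave 47.1% and 45.9% in batch 1 SF153 libraries, compared with 33.1% to 38.5% elsewhere. The small RNA class also took in ribosomal and transfer RNA genes of the mitochondrial genome, so these shares overlap in part. Of 10 myeloid markers, 9 had a mean signal of at least 1, with MPO highest and CD14 under 1 in every library. Their sum lay between 1095 and 1339 in SF153 libraries, against 1597 to 1748 in DMSO libraries, and of the 9 tested 2 were called higher and 4 lower, among them MPO, which weighs most in the sum. Over all genes tested, 13.0% were called higher and 24.3% lower. CD33 and ITGAM, named after their values were seen, were the 2 called higher, at log2 differences (SF153 minus DMSO) of 0.40 and 0.42. The 4 called lower were FLT3 (-1.24), LYZ (-0.98), CEBPA (-0.76) and MPO (-0.66). Of 8 lymphoid markers 4 were listed, with sums of 53.9 to 115.6 in SF153 and 119.9 to 153.1 in DMSO libraries, mostly from NKG7. Of the 3 tested 2 were called lower and 0 higher, where 24.3% of all genes were called lower. CD2 stood at 0 to 0.705 in SF153 and 5.08 to 6.07 in DMSO libraries, so it passed the filter on low values only through DMSO. CD79A averaged 6.72 in SF153 and 27.1 in DMSO libraries. NKG7 was not called. Of 8 erythroid and megakaryocyte markers only EPOR was listed, at 0.269 to 2.26 in SF153 and 0.687 to 1.80 in DMSO libraries. The part of these shifts in the results was not tested. In bulk RNA, fewer cells of a type and less RNA per cell cannot be told apart.

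MCL1 and BCL2 were the 2 most abundant members in both treatments, and the treated cells differed mainly in the lower part of the order. In SF153 libraries MCL1 averaged 101.9 and BCL2 67.9, followed by PMAIP1 at 24.7, BID at 16.7, BCL2L1 at 14.7, BCL2L11 at 14.2, BBC3 at 8.42, BAD at 5.06, BCL2A1 at 4.83 and BAK1 at 4.63. In DMSO libraries MCL1 averaged 116.9 and BCL2 93.5, followed by PMAIP1 at 33.6, BID at 32.7, BCL2L11 at 20.5, BCL2L1 at 16.8, BAD at 16.0, BAK1 at 7.10, BBC3 at 6.32 and BCL2A1 at 1.24. Neighbours in this order whose ranges overlapped were BID, BCL2L1 and BCL2L11 as well as BAD, BCL2A1 and BAK1 in SF153 libraries. In DMSO libraries they ran from PMAIP1 to BAD, and BAK1 overlapped BBC3. BCL2A1 was thus last in DMSO libraries by a clear gap and within the range of BAD and BAK1 after SF153.

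**Figure D1:**
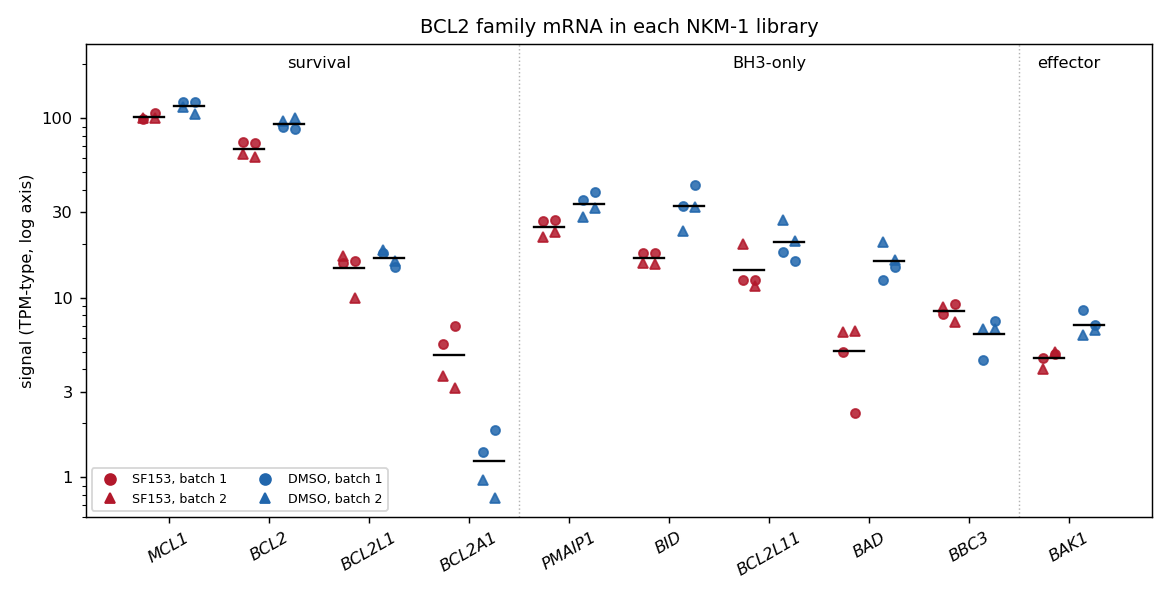
Signal (log axis, labelled TPM-type although the unit is not settled) of the 10 BCL2 family genes in each library, SF153 left and DMSO right of each gene's position, with the marker shape giving the batch and bars the group mean. MCL1 and BCL2 lie above all other members in every library, the 4 SF153 values of BCL2A1 lie above its 4 DMSO values, and those of BAD, BID, BCL2, PMAIP1 and BAK1 lie below.

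Of the 10 members, SF153 cells had higher BCL2A1 and lower BCL2, BAD, BID, PMAIP1 and BAK1 mRNA, and MCL1, BCL2L1, BCL2L11 and BBC3 did not pass the test (limma, Benjamini-Hochberg adjusted p below 0.05 over 15542 genes). That is 6 of 10 members called, where 37.2% of all genes tested were called, with 13.0% of genes called higher and 24.3% called lower. The median log2 difference was -0.44 over the members and -0.03 over all genes tested. The 6 called members were also those whose SF153 and DMSO values did not overlap, a separation that 36.8% of all genes tested showed. Log2 differences below are SF153 minus DMSO on the log2(signal + 1) scale, with SE, from 4 libraries per treatment.

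The survival genes did not move as a block. BCL2A1, which encodes the small survival protein known as BFL-1 or A1 and is a target of NF-kB in blood cells, was the member that rose. Its signal was 5.55, 6.98, 3.66 and 3.14 in SF153 libraries 1.1, 1.2, 2.1 and 2.2, against 1.39, 1.83, 0.97 and 0.77 in the DMSO libraries in the same order. Both treatments had higher values in batch 1 than in batch 2, and every SF153 library lay above every DMSO library. The means were 4.83 ± 1.77 and 1.24 ± 0.47 (SD, n = 4 each), a ratio of 3.90. The log2 difference was 1.36 ± 0.25 (limma adjusted p = 0.00242), above that of 99.3% of all genes tested, and it was 1.48 in batch 1 and 1.24 in batch 2. The added 1 in log2(signal + 1) makes this difference smaller than that of the means. BCL2A1 remained the scarcest survival transcript, with 2.52% ± 0.76 of the summed survival signal in SF153 and 0.541% ± 0.205 in DMSO libraries (SD, n = 4 each).

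BCL2, the founding member of the family and the target of BH3-mimetic drugs, was called lower. It stood at 74.2, 73.1, 63.1 and 61.1 in the SF153 libraries, against 89.2, 87.9, 96.6 and 100.4 in the DMSO libraries. Its mean was 67.9 ± 6.73 in SF153 and 93.5 ± 5.98 in DMSO libraries (SD, n = 4 each), and the log2 difference was -0.46 ± 0.09 (limma adjusted p = 0.00262). Batch 2 held both the lowest SF153 and the highest DMSO values, so that the log2 difference was -0.66 there and -0.26 in batch 1. This difference between batches did not pass its own test (limma interaction adjusted p = 0.178), which 1.15% of all genes tested passed. Without mitochondrial and small RNA genes the difference shrank to -0.12 (limma adjusted p = 0.259). BCL2 also missed the threshold in batch 1 alone (limma adjusted p = 0.0591) and when the library pairs were averaged (limma adjusted p = 0.0559).

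MCL1, whose short-lived protein binds BAK1, BIM and NOXA, stood at 99.3, 107.6, 100.4 and 100.2 in SF153 libraries, against 122.7, 123.9, 115.5 and 105.3 in DMSO libraries. The lowest DMSO value, from library 2.2, lay under the highest SF153 value, from library 1.2. The log2 difference was -0.19 ± 0.07, with a 95% interval from -0.36 to -0.03 and a limma adjusted p of 0.0601. With batch as a block MCL1 passed the test (-0.19, limma adjusted p = 0.0354), but not with the library pairs averaged (limma adjusted p = 0.239). It also passed without DMSO library 2.2 (-0.24, limma adjusted p = 0.0260), while its sign turned when scaling left out mitochondrial and small RNA genes (0.15).

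BCL2L1, which encodes BCL-XL and by alternative splicing the proapoptotic BCL-XS, stood at 15.6, 16.0, 17.0 and 9.97 in SF153 libraries, against 17.7, 14.8, 18.4 and 16.1 in DMSO libraries. Library SF153 2.2 was the lowest of the 8, and the other SF153 values lay within the DMSO range. The log2 difference was -0.20 ± 0.16, with a 95% interval from -0.56 to 0.16 (limma adjusted p = 0.353), and it was -0.04 without SF153 2.2. The files hold 1 value per gene, so the long and short forms of BCL2L1 and of MCL1, which arise by splicing, were not distinguished.

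Of the 5 BH3-only genes 3 were called lower and none higher, where 24.3% of all genes were called lower, with a median log2 difference of -0.50. Without mitochondrial and small RNA genes 2 were called lower (BAD and BID) and 1 higher (BBC3), and BBC3 was also called higher under the other 2 scalings and with a trend on length and mean signal removed. BAD, which encodes a sensitizer that growth factor kinases inactivate by phosphorylation, showed the lowest log2 difference of the 10 members. It stood at 5.01, 2.28, 6.43 and 6.52 in SF153 libraries, against 12.6, 14.9, 20.4 and 16.2 in DMSO libraries. The highest SF153 value was thus well under the lowest DMSO value. The means were 5.06 ± 1.98 and 16.0 ± 3.31 (SD, n = 4 each), so that 31.6% of the DMSO mean was left, and the log2 difference was -1.54 ± 0.26 (limma adjusted p = 0.00153), with -1.72 in batch 1 and -1.36 in batch 2. GPR137, which overlaps BAD on the opposite strand, averaged 11.3 in SF153 and 10.4 in DMSO libraries (log2 difference 0.09, limma adjusted p = 0.612). The library kit keeps strand, but the sources used here do not give the strand setting of the counting.

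BID links death receptors to mitochondria once caspase-8 has cut its protein. Its signal was 17.9, 17.8, 15.7 and 15.4 in SF153 libraries, against 32.4, 42.5, 23.7 and 32.3 in DMSO libraries. SF153 libraries lay close together and DMSO libraries spread widely, without overlap. The means were 16.7 ± 1.32 and 32.7 ± 7.67 (SD, n = 4 each), 51.1% of the DMSO mean, and the log2 difference was -0.90 ± 0.15 (limma adjusted p = 0.00152), with -1.02 in batch 1 and -0.79 in batch 2.

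PMAIP1 encodes NOXA, which binds mainly MCL1 and promotes its breakdown. It stood at 26.7, 27.1, 21.9 and 23.2 in SF153 libraries, against 35.2, 39.0, 28.4 and 31.6 in DMSO libraries. Batch 1 was the higher in both treatments, and the gap was alike in both, at log2 differences of -0.45 in batch 1 and -0.40 in batch 2. The pooled log2 difference was -0.42 ± 0.12 (limma adjusted p = 0.0174). The call was lost in 6 of 24 alternatives, with a difference of -0.091 without mitochondrial and small RNA genes (limma adjusted p = 0.480), -0.18 with a trend on length and mean signal removed (limma adjusted p = 0.246) and -0.22 under quantile normalization (limma adjusted p = 0.126). It was also lost with averaged library pairs, in batch 2 alone and without both SF153 libraries of batch 2. PMAIP1 lies 3219039 bases from BCL2 on chromosome 18.

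BCL2L11 encodes BIM, which binds all survival proteins and can activate the effectors. Its signal was 12.7, 12.5, 20.0 and 11.7 in SF153 libraries, against 18.0, 16.0, 27.3 and 20.8 in DMSO libraries. Library 2.1 was the highest of its treatment on both sides, and the SF153 2.1 value lay inside the DMSO range. The log2 difference was -0.50 ± 0.20, with a 95% interval from -0.95 to -0.06 (limma adjusted p = 0.0723). BCL2L11 passed the test with batch as a block (-0.50, limma adjusted p = 0.0389) and without SF153 2.1 (-0.67, limma adjusted p = 0.0165), but not with the library pairs averaged (-0.49, limma adjusted p = 0.146). MIR4435-2HG, a long noncoding gene on the opposite strand that spans BCL2L11, averaged 131.6 in SF153 and 107.3 in DMSO libraries (log2 difference 0.30, limma adjusted p = 0.0281), far above BCL2L11 itself.

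BBC3 encodes PUMA, which binds every survival protein. It stood at 8.10, 9.29, 8.91 and 7.37 in SF153 libraries, against 4.50, 7.40, 6.67 and 6.71 in DMSO libraries. Its mean was thus higher in SF153, but DMSO 1.2 and SF153 2.2 overlapped by a narrow margin. The log2 difference was 0.38 ± 0.15, with a 95% interval from 0.03 to 0.72 (limma adjusted p = 0.0827). BBC3 passed the test, with a positive sign, under median-of-ratios scaling (0.44, limma adjusted p = 0.0460), quantile normalization (0.48, limma adjusted p = 0.0259), and without mitochondrial and small RNA genes (0.68, limma adjusted p = 0.00553).

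PMAIP1 and BBC3 are both known as stress-induced BH3-only genes, and their values pointed in opposite directions here. Their RefSeq promoter sequences are shown to let the bases before these 2 genes be compared, cut where the first annotated exon begins. The build is GRCh38.p14, with PMAIP1 at chr18:59899746-59899947 on the plus strand and BBC3 at chr19:47232767-47232917 on the minus strand. Capitals mark GC boxes (GGGCGG) and the core of the cAMP response element (TGACGT), searched on both strands; CCAAT and TATAAA were searched as well, and no match overlaps another.
PMAIP1: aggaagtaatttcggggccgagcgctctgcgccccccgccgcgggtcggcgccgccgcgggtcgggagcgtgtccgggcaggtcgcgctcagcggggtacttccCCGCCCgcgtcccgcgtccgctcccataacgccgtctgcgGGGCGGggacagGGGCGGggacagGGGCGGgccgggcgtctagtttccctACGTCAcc
BBC3: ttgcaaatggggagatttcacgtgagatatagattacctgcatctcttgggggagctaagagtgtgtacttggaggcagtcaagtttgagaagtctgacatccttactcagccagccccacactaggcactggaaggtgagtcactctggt
The 202 bases of PMAIP1 were 76.2% G and C, with 4 GC boxes and 1 cAMP response element core on the reverse strand close to the gene start. The 151 bases of BBC3 were 49.0% G and C and held none of the 4 motifs, but its window held CCAAT at base 164, past the bases shown. Among 27305 genes with RefSeq windows, 48.3% held GGGCGG in at least 1 window, 9.64% TGACGT, 39.7% CCAAT and 14.0% TATAAA. Among the 9 members with such a window, 6 held the GC box and 2 the cAMP response element core (BAD and PMAIP1). CCAAT was in 4 (BAD, BAK1, BBC3 and BCL2L11) and TATAAA in 2 (BCL2A1 and BCL2L1). The NF-kB site, searched by its consensus, was in no window of these 9 members and in 11.3% of all 35116 windows, a share per window and not per gene. Each window covers only bases close to a gene start, so sites further away were not searched. These matches describe letters only, and the motifs were chosen after the sequences had been seen.

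The effector BAK1 was called lower, but its reads may be shared with a nearly identical copy. BAK1 protein sits in the outer mitochondrial membrane and forms the pore together with BAX. Its signal was 4.64, 4.88, 3.99 and 5.01 in SF153 libraries, against 8.52, 7.08, 6.23 and 6.58 in DMSO libraries. The groups did not overlap, and the log2 difference was -0.52 ± 0.13 (limma adjusted p = 0.0132). The processed pseudogene BAK1P1, on chromosome 20 at 32690180 to 32690815 (GRCh38, GENCODE release 29), is 98.3% identical to BAK1 over its 636 bases. It stood at 5.35, 4.52, 5.89 and 7.94 in SF153 libraries, against 2.74, 3.65, 1.34 and 5.46 in DMSO libraries, and in each batch both SF153 values lay above both DMSO values (log2 difference 0.76 ± 0.29, limma adjusted p = 0.0688). Summed without weights, BAK1 and BAK1P1 averaged 10.6 ± 1.62 in SF153 and 10.4 ± 1.96 in DMSO libraries (SD, n = 4 each; log2 difference 0.03, limma adjusted p = 0.907). Summed with BAK1P1 weighted by its length relative to BAK1, they averaged 6.33 ± 0.68 and 8.05 ± 1.11 (log2 difference -0.30 ± 0.13, limma adjusted p = 0.105). The weighted sum goes with length-corrected values, as assumed above for levels, and the plain sum with uncorrected values. The call for BAK1 was thus lost in both sums, and also when the library pairs were averaged (limma adjusted p = 0.0805).

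**Figure D2:**
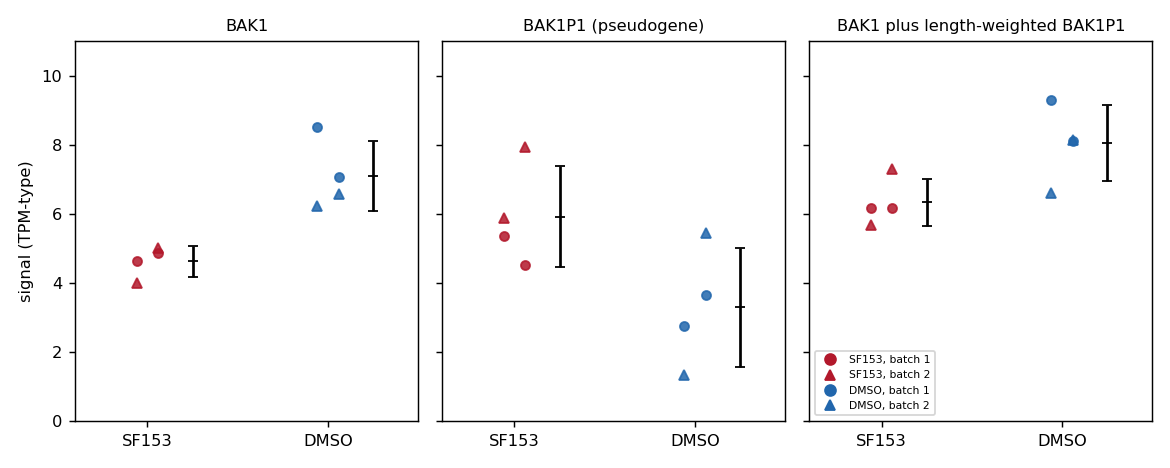
Signal (axis labelled TPM-type although the unit is not settled) of BAK1, of its processed pseudogene BAK1P1 and of their length-weighted sum in each library, SF153 left and DMSO right, with black bars for the group mean and SD (n = 4 each). BAK1 averages 4.63 in SF153 and 7.10 in DMSO libraries, BAK1P1 5.92 and 3.30, and the weighted sum 6.33 and 8.05 with overlapping groups.

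Set against one another within each library, survival transcripts made up more of the summed signal of the 10 genes after SF153. These sums leave out relatives outside the 10, among them the effector BAX, at 86.3 in SF153 and 101.4 in DMSO libraries. The survival gene BCL2L2 (36.5 and 24.1) and the BH3-only gene BMF (7.13 and 12.9) are left out too. With such relatives the ratios below would differ, most of all through BAX, and they were not computed. The summed survival signal was 189.2 ± 12.7 in SF153 and 228.4 ± 4.10 in DMSO libraries, and the summed BH3-only signal was 69.1 ± 3.66 and 109.1 ± 7.36 (SD, n = 4 each). The survival sum divided by the sum of BH3-only and effector members was 2.60, 2.76, 2.39 and 2.52 in SF153 libraries, against 2.08, 1.80, 2.05 and 1.95 in DMSO libraries. The lowest SF153 ratio exceeded the highest DMSO ratio, in both batches. Survival members held 71.9% ± 1.19 of the signal of these 10 genes in SF153 and 66.3% ± 1.46 in DMSO libraries. A factor that scales a whole library cancels in these ratios, and no test was run on them, since the members were chosen by name with results known.

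Within the classes the make-up differed as well. The ratio of MCL1 to BCL2 was 1.51 ± 0.13 in SF153 and 1.26 ± 0.17 in DMSO libraries (SD, n = 4 each), with overlap between the treatments. Split by batch, it was 1.34 and 1.47 in SF153 against 1.38 and 1.41 in DMSO libraries of batch 1, and 1.59 and 1.64 in SF153 against 1.20 and 1.05 in DMSO libraries of batch 2. The treatments were thus separate in batch 2 and overlapped in batch 1. The ratio of MCL1 to its binder PMAIP1 was 4.15 ± 0.38 in SF153 and 3.52 ± 0.39 in DMSO libraries, also with overlap. Of the summed signal of the 5 BH3-only members, BBC3 made up 12.2% ± 0.93 in SF153 and 5.77% ± 0.92 in DMSO libraries. BAD made up 7.35% ± 2.97 and 14.7% ± 3.24. Neither of these shares overlapped between the treatments.

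**Figure D3:**
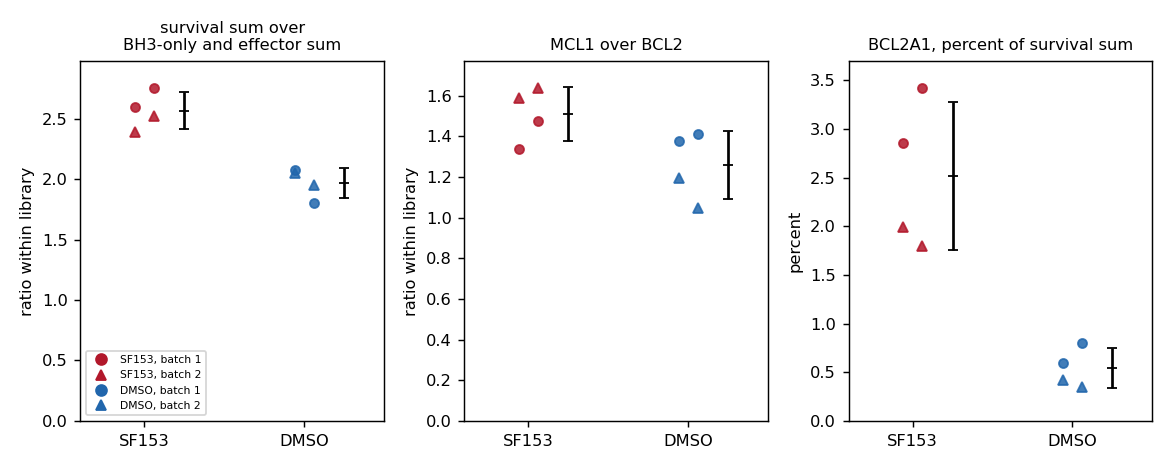
Ratios and shares within each library (SF153 left, DMSO right; marker shape gives the batch, black bars the group mean and SD; axes start at 0). The ratio of survival to BH3-only and effector signal, over the 10 genes and without BAX, lies between 2.39 and 2.76 in SF153 and between 1.80 and 2.08 in DMSO libraries.

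All 10 members had a log2 difference of the same sign in both batches, and none passed the test for a treatment difference between batches (limma interaction adjusted p from 0.178 to 0.956). The scaling between libraries mattered more for small differences. Median-of-ratios scaling, quantile normalization, and removal of mitochondrial and small RNA genes before scaling moved the median of all genes by 0.06, 0.10 and 0.29. Over all genes tested, 2015 were called higher and 3770 lower with the authors' scaling, and 2563 and 3288, 3232 and 2814, and 5362 and 2119 under these 3 alternatives. Under the last of these only BAD (-1.24), BID (-0.58), BCL2A1 (1.59) and BBC3 (0.68) were called. Under it BCL2 (-0.12), PMAIP1 (-0.091) and BAK1 (-0.23) kept a negative sign without passing the test, and MCL1 (0.15) and BCL2L1 (0.12) turned positive. Relative to the median of all genes, BCL2 lay between -0.43 and -0.35 and BAD between -1.51 and -1.50 under the authors' scaling and these 3 others. Median-of-ratios scaling and the removal of genes multiply each library by a common factor, which moves a gene and the median nearly alike. For these scalings the closeness was thus set by arithmetic and is no measure of robustness. BAD and BID kept their call in all 24 alternatives, and BCL2A1 in all 23 in which it was tested.

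**Figure D4:**
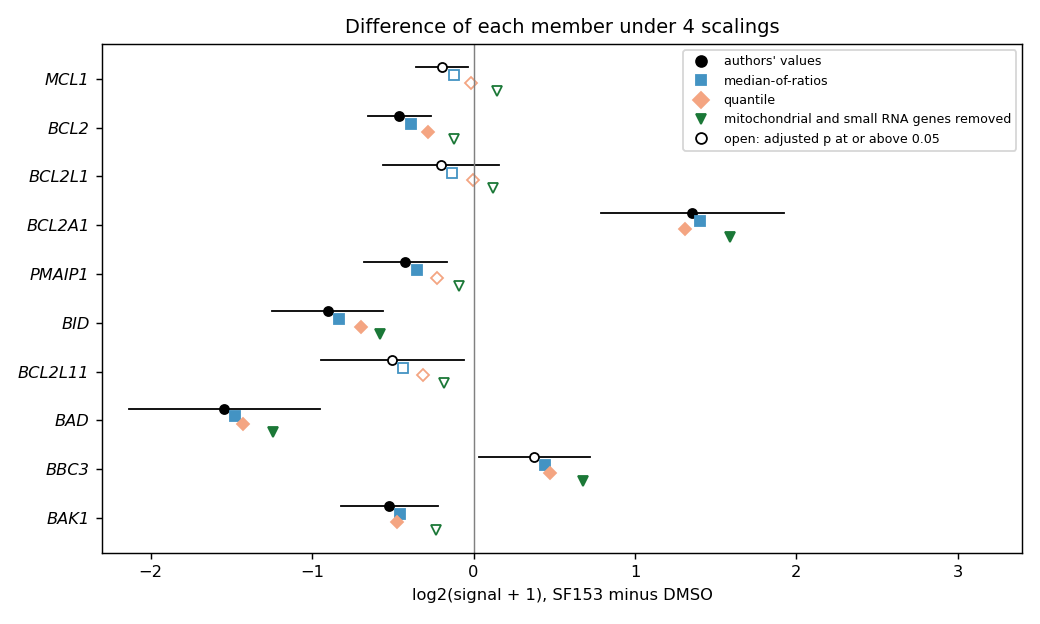
Log2(signal + 1) difference, SF153 minus DMSO, of each member under the authors' scaling and 3 others; open symbols have a limma adjusted p at or above 0.05. BCL2A1, BAD and BID stay filled throughout, whereas MCL1 and BCL2L1 cross 0 when mitochondrial and small RNA genes are removed.

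Relatives outside these 10 genes were mixed. Of 14 such genes 10 were listed and 9 tested, of which 2 were called higher, 4 lower and 3 not called (13.0% of all genes were called higher and 24.3% lower), with a median log2 difference of -0.30. BCL2L2, which encodes the survival protein BCL-W, was higher at 36.5 ± 2.59 in SF153 and 24.1 ± 4.65 in DMSO libraries (SD, n = 4 each; log2 difference 0.59 ± 0.13, limma adjusted p = 0.00496). BCL2L2-PABPN1, a readthrough transcript into the neighbouring gene, rose by 0.77 ± 0.18, and the sum of the 2 entries was 54.1 ± 2.41 in SF153 and 34.0 ± 3.53 in DMSO libraries (0.66 ± 0.09, limma adjusted p = 0.000345). BCL2L2 missed the threshold in batch 2 alone (0.50, limma adjusted p = 0.161) and BCL2L2-PABPN1 in batch 1 alone (0.46, limma adjusted p = 0.258). BAX, the other main effector, was far more abundant than BAK1, at 86.3 ± 5.98 in SF153 and 101.4 ± 8.99 in DMSO libraries (log2 difference -0.23 ± 0.08, limma adjusted p = 0.0554), and it passed the test with batch as a block (limma adjusted p = 0.0184) and turned positive without mitochondrial and small RNA genes (0.11).

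BMF, a BH3-only gene whose protein is tethered to the cytoskeleton, fell to 7.13 ± 0.59 in SF153 libraries, against 12.9 ± 2.60 in DMSO libraries (log2 difference -0.76 ± 0.15, limma adjusted p = 0.00370). The mitophagy receptor BNIP3L fell by 0.79 ± 0.14 and BCL2L12 by 0.68 ± 0.13 on the log2 scale. BCL2L13 was called at -0.30 ± 0.10 (limma adjusted p = 0.0439), a call that was lost without any 1 of 7 libraries, and it turned to 0.03 without mitochondrial and small RNA genes. BNIP3 (-0.32, limma adjusted p = 0.106) and the scarce BCL2L15 (0.13, limma adjusted p = 0.749) were not called. BIK, at 0.42 in SF153 and 0.29 in DMSO libraries, was under the filter. BCL2L10, BCL2L14, BOK and HRK were not analysed here.

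Downstream of the pore, 8 of 13 tested genes of the apoptosome and the caspases were called lower and none higher, where 24.3% of all genes were called lower, with a median log2 difference of -0.49. The other 5 did not pass the test. CYCS, the gene of cytochrome c, fell to 19.5 ± 3.72 in SF153 libraries, against 58.1 ± 6.88 in DMSO libraries (SD, n = 4 each; log2 difference -1.54 ± 0.14). The mitochondrial nuclease gene ENDOG fell by 1.53 ± 0.24 and CASP2 by 0.80 ± 0.13 on the log2 scale. The count of lower calls was 4 without mitochondrial and small RNA genes and 5 after quantile normalization. Of 5 inhibitor of apoptosis genes tested only BIRC5, which encodes the mitotic protein survivin, was called (-0.99 ± 0.11), and the list's median was 0.10.

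The death receptor genes, which feed into BID, moved both ways: 3 of 10 were called higher and 2 lower, where 13.0% of all genes were called higher and 24.3% lower, with a median log2 difference of 0.11. TNFRSF10B, a receptor for the ligand TRAIL, averaged 74.0 ± 7.06 in SF153 and 41.9 ± 8.83 in DMSO libraries (SD, n = 4 each; 0.83 ± 0.15, limma adjusted p = 0.00179). CFLAR, whose protein FLIP restrains caspase-8, averaged 128.7 ± 17.3 and 87.9 ± 2.57 (0.54 ± 0.10, limma adjusted p = 0.00186). The adaptor FADD (-0.87 ± 0.18) and the receptor TNFRSF1A (-0.42 ± 0.13) were called lower, TNFRSF1A with overlapping groups and differences of -0.13 (batch 1) and -0.71 (batch 2). Its call was lost under all 3 other scalings (-0.08 without mitochondrial and small RNA genes), with the library pairs averaged, and without any 1 of 5 libraries.

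Genes whose proteins govern the stability of family members gave 4 of 9 called lower and none higher (24.3% and 13.0% of all genes), with a median of -0.22. TPT1, whose product TCTP binds MCL1, fell by 1.90 ± 0.22 on the log2 scale and CDC20, an anaphase-promoting complex activator, by 1.51 ± 0.13. The ubiquitin ligase genes HUWE1, known as MULE and acting on MCL1, and FBXW7 had small differences of -0.22 ± 0.07 and -0.27 ± 0.09, which turned positive without mitochondrial and small RNA genes (0.11 and 0.07) and lost their call without any 1 of 5 libraries for HUWE1 and of 6 for FBXW7. Among membrane channels and BCL2 partners, 6 of 9 were called lower and 2 higher (24.3% and 13.0% of all genes), with a median of -0.72. VDAC1 (-1.37 ± 0.14) and VDAC2 (-0.87 ± 0.11) encode outer membrane channels, VDAC2 being a docking partner of BAK1. The BAX inhibitor gene TMBIM6 (-1.04 ± 0.14) and the BCL2-binding cochaperone gene BAG1 (-0.81 ± 0.13) were called lower too. The 2 called higher were ITPR1 (0.60 ± 0.08), at 263.8 in SF153 and 174.3 in DMSO libraries, and ITPR2 (0.56 ± 0.17), with overlapping groups.

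Among 8 transcription factor genes known to act on BH3-only genes, 2 were called lower, 1 higher and 5 not called, shares near the 24.3% and 13.0% of all genes, with a median of -0.23. E2F1, a driver of S-phase genes, averaged 8.52 ± 1.40 in SF153 and 14.4 ± 1.20 in DMSO libraries (SD, n = 4 each; -0.70 ± 0.13, limma adjusted p = 0.00194). DDIT3, which encodes the stress factor CHOP, was higher at 47.6 ± 4.38 in SF153 and 31.8 ± 2.63 in DMSO libraries (0.57 ± 0.09, limma adjusted p = 0.00106).

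**Figure D5:**
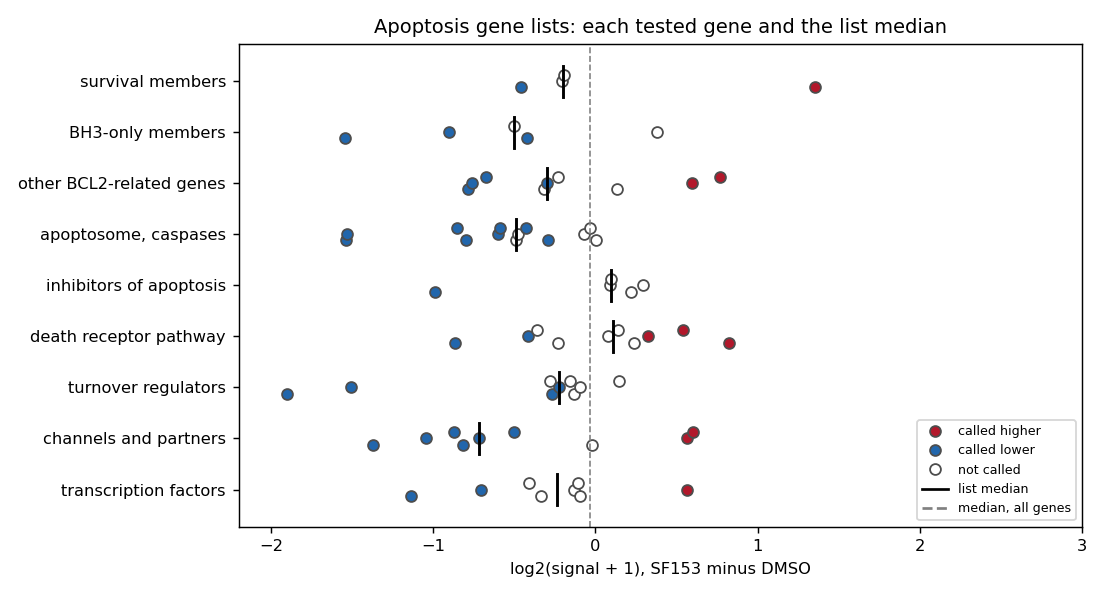
Log2(signal + 1) difference, SF153 minus DMSO, of each tested gene of the family classes and of the related apoptosis lists, coloured by call, with a bar at each list's median. The apoptosome and caspase list and the channel list have medians of -0.49 and -0.72, and the death receptor list has a median of 0.11.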

How the data were processed

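RNA-seq signal per gene was analysed in 8 NKM-1 libraries, 4 with SF153 and 4 with DMSO. The authors deposited a signal in 4 files of 2 libraries each; the file labels name both CPM and TPM, the columns do not sum to the fixed total of plain TPM, and the analysis plan had assumed TPM. Per the submitters' processing notes, the tools were CASAVA 1.8.2, Salmon, STAR and edgeR and the build GRCh38, with no roles stated. Read depth cannot be recovered, so no counting interval or detection limit is given. Groups and batches came from the labels. Value columns that differed in spelling from the library names in the labels numbered 4.

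Log2(signal + 1) was compared by limma 3.58.1 (R 4.3.3) for genes whose mean signal was at least 1, with a trended variance prior, no batch term and Benjamini-Hochberg adjustment over all 15542 genes, called below 0.05. The fit was tested on simulated data. Python 3.11.15 was used for the rest. Positions, lengths and overlaps came from GENCODE release 29 (GRCh38) and promoter windows from RefSeq; MCL1 had no window.

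The members and all lists were chosen with earlier results of these data known. Named genes are all members, the listed relatives, and up to 4 called genes per other list with the largest absolute log2 difference. Not every gene so selected is reported here. Cell type markers, ITPR1 and ITPR2 were named outside this rule. The labels' batch pairs the treatments; across genes the batch differences of the treatments had r = 0.067. Alternatives covered pseudocount, filter, scaling, variance prior, batch, averaging, left-out libraries, a trend on length and mean signal, and gene copies.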

Additional observations from a re-analysis of the deposited data

Results flagged for a closer look

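Among the 39 genes that the naming rule selects, each with 4 libraries per treatment (78 groups), 4 groups had a library far from its 3 companions relative to the group's range, where chance alone sets off this check in about 1 of 20 groups. MCL1 was 107.6 in SF153 1.2, against 99.3 to 100.4 in the other SF153 libraries. BCL2L11 was 20.0 in SF153 2.1, against 11.7 to 12.7 in the others. BCL2L15 was 0.851 in SF153 2.2, the lowest of its treatment. BNIP3 was 10.6 in DMSO 2.1, the highest of its treatment.

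TPT1 differed between batches in its response: the log2 difference was -2.26 in batch 2 and -1.55 in batch 1, a gap of -0.71 (limma interaction adjusted p = 0.0018).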

How the results depend on the processing

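The read depth is unknown, so how firmly low genes such as BCL2A1 were measured cannot be stated. BAD and BID kept direction and call in all 24 alternatives, and BCL2A1 in the 23 in which it was tested. Adjusted p-values here are from limma, and causes were not tested.

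With batch as a replicate block, 5943 genes were called (5785 without the block), 7 members lower, and MCL1 (-0.19, adjusted p = 0.0354) and BCL2L11 (-0.50, 0.0389) passed; it ended no member's call. With a mean signal of at least 5, BCL2A1 was not tested, so 0 members were higher, and MCL1 passed (-0.19, 0.0497), as it did with a robust prior (-0.19, 0.0486).

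Under median-of-ratios scaling 2 members were higher, with BBC3 called (0.44). Quantile normalization gave 3232 genes higher and 2814 lower, 2 members higher, BBC3 called (0.48) and PMAIP1 not (-0.22, 0.126). Without mitochondrial and small RNA genes 5362 genes were higher and 2119 lower, with 2 members higher (BBC3 0.68) and 2 lower; BCL2 (-0.12), BAK1 (-0.23) and PMAIP1 (-0.091) lost their call, and MCL1 (0.15), BCL2L1 (0.12), BAX (0.11), BCL2L13 (0.027), FBXW7 (0.068) and HUWE1 (0.11) changed sign. Higher calls among all genes numbered 2015 and lower calls 3770 with the authors' scaling, and 2563 and 3288 under median-of-ratios scaling.

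With a trend on length and mean signal removed, 2 members were higher, BBC3 was called (0.49), PMAIP1 was not (-0.18), and BAX (0.011) and BCL2L15 (-0.017) changed sign. Averaging the library pairs of a treatment and batch gave 3429 calls (910 higher, 2519 lower) and 2 members lower; BCL2 (-0.46, 0.0559), BAK1 (-0.52, 0.0805) and PMAIP1 (-0.42, 0.107) lost their call.

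Batch 1 alone gave 3131 calls (861 higher, 2270 lower) and 3 members lower, without BCL2 (-0.26, 0.0591) and BAK1 (-0.61, 0.0887). BCL2L12, BCL2L13, BMF, BCL2L2-PABPN1, FADD, TNFRSF1A, FBXW7 and HUWE1 lost their call there too. Batch 2 alone gave 3315 calls (859 higher, 2456 lower) and 3 members lower, without BAK1 (-0.43, 0.201) and PMAIP1 (-0.40, 0.0726). In that batch BCL2L15 was at -0.15, and BCL2L2, BCL2L12, BCL2L13, BNIP3L, FADD, HUWE1, E2F1 and DDIT3 lost their call. Leaving out both SF153 libraries of batch 2, an alternative chosen after seeing the data like the BAK1 sums and the removal of both SF153 libraries of batch 1, gave 1135 genes higher and 3 members lower, without BAK1 (-0.48, 0.0726) and PMAIP1 (-0.30, 0.145). BAK1 with BAK1P1 gave 0.028 as a plain sum and -0.30 weighted by length.

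Leaving out each library in turn gave 4872 to 5371 calls, 1555 to 1792 higher and 3293 to 3614 lower, with 5 to 6 members lower and 1 higher. Ranges of the log2 difference were -0.24 to -0.17 for MCL1 and -0.67 to -0.36 for BCL2L11, called without DMSO 2.2 and without SF153 2.1; BCL2L15 reached -0.015 without DMSO 2.2. For single named genes outside the members and for lists, 1006 values were rated the same, 65 lost a call, 5 gained one, 68 moved and 8 changed sign. These counts include the values named above, among them all 8 sign changes. The same means kept direction and call for a gene, and a value within a set margin for a count or median. Moved means a count or median outside that margin.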
